A study of Saccharomyces cerevisiae with 4 samples.

Results

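The small ribosomal subunit protein genes of Saccharomyces cerevisiae are the genes of the cytosolic 40S proteins, RPS0A to RPS31, together with ASC1. They were taken as the 57 genes whose systematic name stands on that list, of 6063 genes read on at least 1 of 4 spotted 2-colour whole-genome arrays. Of the 57, 56 were read on at least 1 array and 54 on all 4. RPS21B (YJL136C) was read on none, RPS14A (YCR031C) only on the arrays of E4, and RPS30A (YLR287C-A) on array 1 of E4 and array 2 of E3, with 1 dim spot each. The list holds 24 pairs of paralogs and 9 single-copy genes.

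Every culture was the strain DY1457, a wild-type laboratory strain of mating type alpha with auxotrophic markers. In Experiment 4 (E4), cells grown in low zinc medium (LZM) with 3 µM added ZnCl2, a severe zinc deficiency, were set against cells grown in LZM with 3000 µM added ZnCl2, which is zinc-replete. LZM holds EDTA and citrate, which buffer the zinc that cells can take up. In Experiment 3 (E3), cells carrying pYef2-Zap1TC were set against cells carrying the empty vector pYef2, both in zinc-replete SD galactose medium with 1 µM added zinc. Zap1TC is a constitutive allele of Zap1, the transcription factor that activates zinc deficiency genes, and was made here from the galactose-inducible GAL1 promoter in cells that kept their own ZAP1 gene. Each experiment had 2 arrays, labelled as biological replicates from independent cultures. The zinc-limited or Zap1TC culture was labelled with Cy5 and its partner with Cy3 on all 4 arrays, so a dye effect and the effect of the condition cannot be told apart. E4 and E3 also differ in medium and carbon source. ZAP1, as a check of the labels, had a log2 ratio of 1.53 ± 0.12 in E4 and 6.65 ± 0.26 in E3 (SD, n = 2 arrays each). The alpha-specific genes MF(ALPHA)1, MF(ALPHA)2, STE3 and SAG1 were read on all 4 arrays. Of the a-specific genes MFA1, MFA2, STE2 and BAR1, 3 were read on both arrays of E3 and none on both arrays of E4. Read means that a spot had values, not that the gene was expressed, so this does not check the mating type. The alpha-specific genes had a median log2 ratio of −1.36 in E4, between −3.28 for MF(ALPHA)2 and 0.20 for MF(ALPHA)1. In E3 their median was −1.14, between −1.56 for MF(ALPHA)2 and −0.31 for SAG1. The a-specific genes had a median of −0.06 in E3, with MFA2 highest at 0.61.

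The 40S subunit binds the mRNA, holds the decoding centre and scans for the start codon, and joins the 60S subunit for elongation. In yeast most of its proteins are encoded by 2 near-identical genes, named A and B. Transcription of ribosomal protein genes takes up a large part of the cell's mRNA synthesis and follows growth through the TOR and protein kinase A pathways, Sfp1, Sch9 and the promoter factors Rap1, Fhl1 and Ifh1. Several 40S proteins, among them Rps26, Rps27, Rps29 and Rps31, carry cysteine-rich motifs that bind zinc, so that ribosomes are one of the large stores of protein-bound zinc in the cell.

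Values are log2 ratios of Cy5 over Cy3 after background correction and normalization within each array, so that a positive value means more signal in the zinc-limited or the Zap1TC culture. A ratio is relative to the other genes on the array. Cy5 and Cy3 intensities printed for single genes are scanner means before correction and normalization, so the channels are not on a common scale. The cultures were bulk samples, so fewer cells with a transcript and less of it per cell cannot be told apart. A gene was called where the p of limma across all genes, adjusted by Benjamini-Hochberg, was below 0.05. With 2 arrays an experiment, the precision of every mean is limited by their number. Where an array was left out, its experiment kept a single array, and the spread in the fit came from the other experiment alone. A call of the reduced experiment then does not measure the spread between its replicates. For single members only the value is given in that case, while statements on every setting include these fits. Paralogs with near-identical coding sequences can share signal on an array, so a value of one may include the other.

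In zinc-limited cells (E4) the 40S genes changed little, and not all one way. Of 55 tested, 5 rose, 16 fell and 34 were not called. Over all 5129 genes tested, 25.7% were called higher and 24.9% lower, so in this processing the members' 16 of 55 lower was near the background and their 5 higher below it, which the other processings given further on change. The median over the 55 was −0.10, with −0.13 on array 1 and −0.09 on array 2, against −0.00 over all genes. The single values ran between −0.84 for RPS15 and 0.49 for ASC1. The study called genes with a mean of 1.5-fold or more where neither array was under 1.4-fold, and by that rule, mirrored for lower genes, no member was higher (4.64% of all genes) and 1 was lower (1.93% of all genes), which was RPS15.

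In Zap1TC cells (E3) nearly the whole set was lower than in vector cells. Of 54 tested, 51 fell, none rose and 3 were not called. Over all 5780 genes tested, 29.3% were called lower and 29.3% higher. By an unadjusted p below 0.05 in limma the counts were also 51 lower and 0 higher. The median was −0.76, a level 1.69-fold lower, with −0.66 on array 1 and −0.83 on array 2, against 0.00 over all genes. All 54 means were below 0, between −1.25 for RPS9B and −0.04 for RPS28A. By the study's rule 34 members were lower, against 5.35% of all genes, and none was higher, against 7.01% of all genes.

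**Figure D1:**
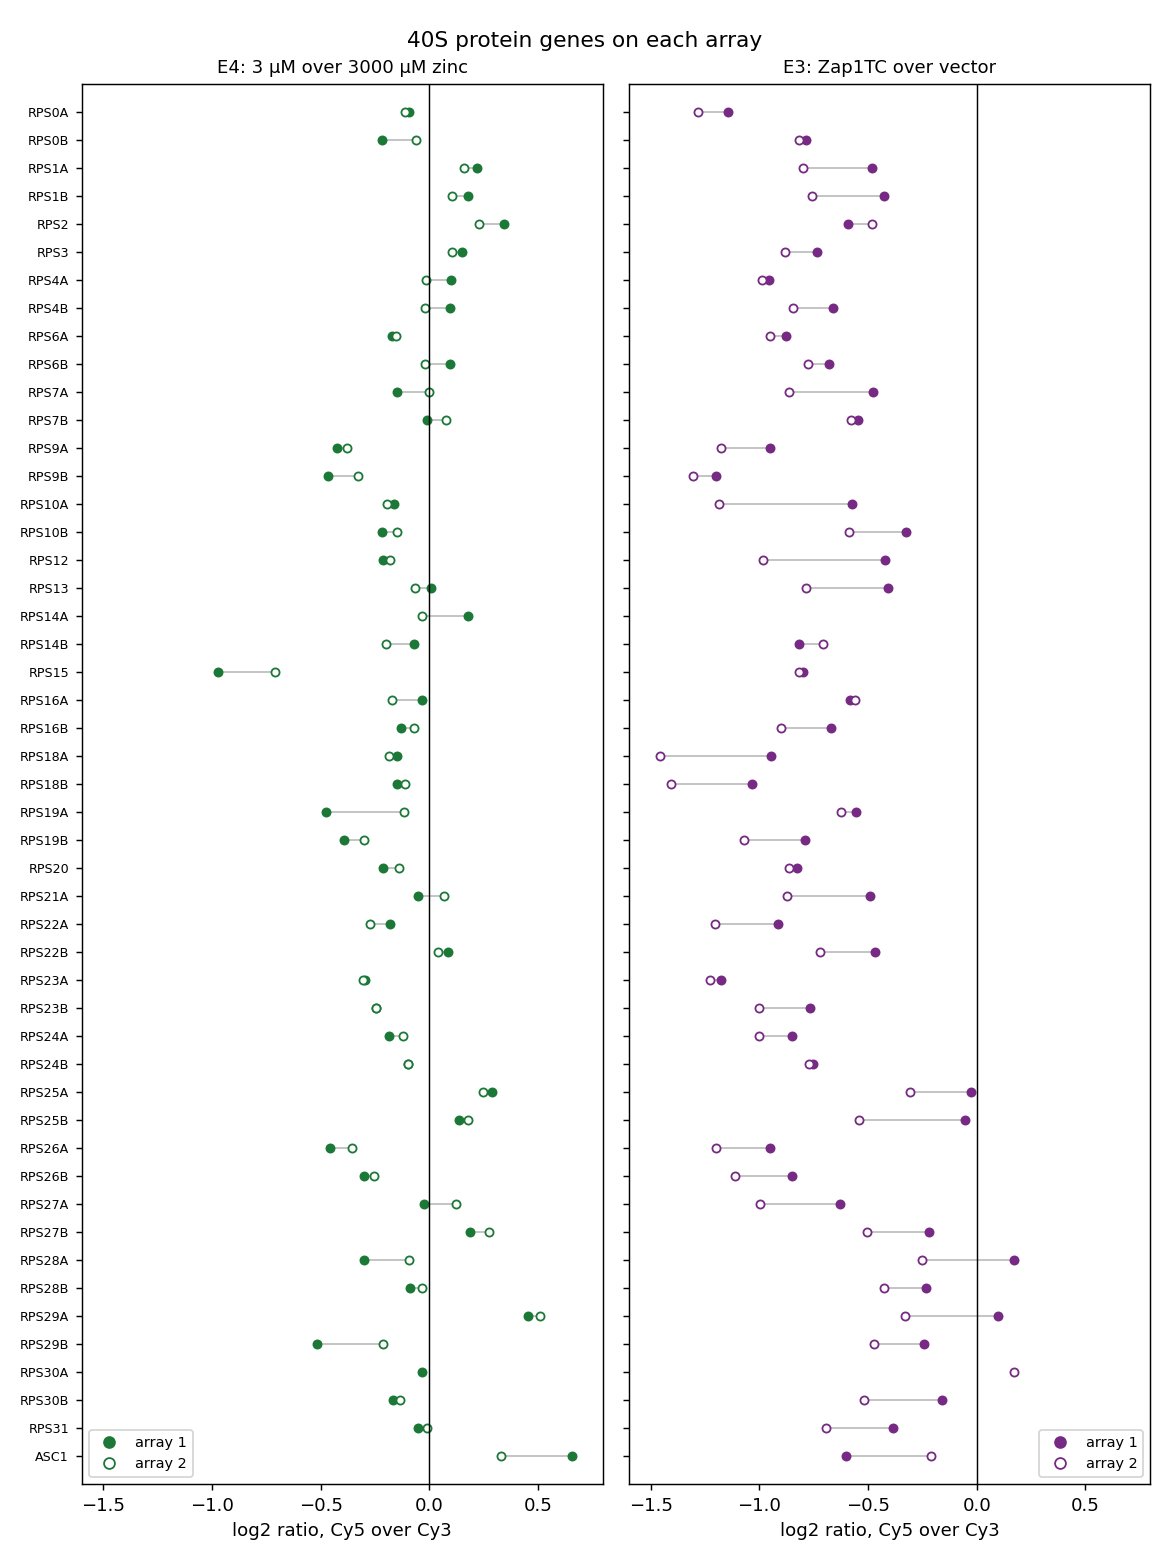
Log2 ratio (x axis) of 40S genes (rows) on array 1 (filled) and array 2 (open), with E4, 3 over 3000 µM zinc, on the left and E3, Zap1TC over vector, on the right. Grey lines join the 2 arrays of a gene. The points of E4 lie around 0, with a median of −0.10 and RPS15 at −0.84 on average, while those of E3 lie mostly between −0.3 and −1.3 with a median of −0.76.

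The plot of the genes on each array shows E4 and E3 as separate clouds, and shows that the arrays of E4 lay closer together than those of E3. The median difference between arrays over members was 0.07 in E4 (r = 0.89 across 55 genes) and 0.23 in E3 (r = 0.81 across 54 genes). These correlations are across genes, which are not independent replicates. In E3 most genes read lower on array 2 than on array 1. The median difference between the duplicate spots of a member within an array was 0.06 and 0.05 in E4 and 0.06 and 0.09 in E3.

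RPS15 was the member that fell most in zinc-limited cells. It is a single-copy gene for a protein of the subunit head that is needed for export of new 40S subunits out of the nucleus. Its mean Cy5 intensity was 1505 and 2171 in the zinc-limited cultures, against Cy3 intensities of 2869 and 3045 in the zinc-replete cultures. The log2 ratios were −0.97 and −0.71, both lower than any other 40S gene on the same array, with a mean of −0.84 ± 0.19 (SD, n = 2) or 1.79-fold lower (adjusted p = 1.78e-05). In E3 it was lower by nearly the same amount, at −0.80 and −0.82 (adjusted p = 7.35e-06), and it stood at −0.51, still called, with a curve per print-tip block.

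The other members with the lowest means in E4 were RPS26A, RPS9A, RPS9B and RPS29B. RPS26A, one of the pair for a zinc-binding protein at the mRNA exit channel, had log2 ratios of −0.46 and −0.36, or 1.33-fold lower (adjusted p = 0.00148). RPS9A and RPS9B encode a protein known for its part in the accuracy of decoding. RPS9A read −0.42 and −0.38 (adjusted p = 0.00119), and RPS9B −0.47 and −0.33 (adjusted p = 8.46e-04). Both copies thus fell by about the same amount. RPS9B stood at −0.24 with a curve per print-tip block and was still called. RPS29B read −0.52 and −0.21 (adjusted p = 0.00587), so array 1 gave most of the fall. The remaining 11 that fell included both copies of RPS19 and RPS23, with means between −0.35 for RPS19B and −0.24 for RPS23B, and RPS6A at −0.16. On array 2 of E4 alone, RPS6A stood at −0.15, RPS19A at −0.12, RPS20 at −0.14, RPS23B at −0.25 and RPS29B at −0.21.

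ASC1 was the member that rose most in zinc-limited cells. It encodes the yeast homologue of RACK1, a WD-repeat protein on the head of the subunit that links ribosomes to signalling and quality control. Its Cy5 intensity was 2396 and 2745 in zinc-limited cells, against Cy3 intensities of 1512 and 1917 in zinc-replete cells. The log2 ratios were 0.66 and 0.33, with a mean of 0.49 ± 0.23 (SD, n = 2) or 1.41-fold higher (adjusted p = 0.00304). In E3 ASC1 fell, with −0.60 and −0.21 and a mean of −0.41 (adjusted p = 0.00532). On array 2 of E3 alone the fall was −0.21, and with plain background subtraction the fall was not called (adjusted p = 0.0802).

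RPS29A, RPS2, RPS25A and RPS27B were the other genes that rose in E4. RPS29A read 0.45 and 0.51, or 1.39-fold higher (adjusted p = 0.00198). RPS2, a single-copy gene for a protein near the mRNA entry site, read 0.34 and 0.23 (adjusted p = 0.00460). RPS25A, whose protein is needed for initiation at several internal ribosome entry sites, read 0.29 and 0.25 (adjusted p = 0.0137), and RPS27B read 0.19 and 0.28 (adjusted p = 0.0289). On array 2 of E4 alone RPS2 stood at 0.23 and RPS25A at 0.25, and on array 1 alone RPS27B stood at 0.19. With a loess curve per print-tip block RPS2 stood at 0.06 and RPS25A at 0.004 in E4, not called. Neither was called with plain background subtraction or with the curve fitted without ribosomal protein genes, and RPS25A and RPS27B were not called in the deposited ratios. With the print-tip curve ASC1 stood at 0.28 in E4 and was called (adjusted p = 0.0342). Of the 5 that rose, ASC1 and RPS29A were called the same way under every alternative processing that was run, as were 5 of the 16 that fell, among them RPS9A, RPS9B, RPS15 and RPS26A.

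In E3 the lowest means belonged to RPS9B, RPS18B, RPS0A, RPS23A and RPS18A. RPS9B read −1.20 and −1.31, with a mean of −1.25 ± 0.08 (SD, n = 2) or 2.38-fold lower (adjusted p = 2.18e-07). RPS18A and RPS18B encode a protein of the subunit head that contacts the large subunit. RPS18B read −1.03 and −1.41 (adjusted p = 1.16e-06) and RPS18A −0.95 and −1.46 (adjusted p = 4.31e-06), lower on array 2 in both copies. RPS0A, one of the pair for a protein needed late in 40S maturation, had Cy5 intensities of 1244 and 746 in Zap1TC cells, against Cy3 intensities of 2874 and 1737 in vector cells. Its log2 ratios were −1.14 and −1.28, or 2.32-fold lower (adjusted p = 2.19e-07). RPS23A, whose protein lies in the decoding centre, read −1.18 and −1.23, or 2.30-fold lower (adjusted p = 1.75e-07). All 5 genes were clearly below 0 on both arrays.

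The E3 values closest to 0 belonged to RPS28A, RPS29A, RPS25A, RPS25B and RPS28B, that is, both copies of RPS28 and RPS25 and 1 copy of RPS29. RPS28A read 0.17 and −0.25 (adjusted p = 0.737), RPS29A 0.10 and −0.33 (adjusted p = 0.285) and RPS25A −0.02 and −0.31 (adjusted p = 0.0792), and these 3 were not called. The first 2 of them lay above 0 on array 1 and below it on array 2. RPS28B, whose protein binds its own mRNA and promotes its decay, read −0.23 and −0.43 (adjusted p = 0.00180), and RPS25B −0.05 and −0.54 (adjusted p = 0.0224). On array 1 of E3 alone RPS25B stood at −0.05. On array 2 alone RPS25A stood at −0.31, RPS28A at −0.25 and RPS29A at −0.33. RPS25A was called lower in the deposited ratios and with 2 of the other curves, print-tip (−0.26) and without ribosomal protein genes (−0.31). RPS25B was not called with plain background subtraction.

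The 34 members past the study's rule in E3 included both copies of RPS0, RPS4, RPS6, RPS9, RPS18, RPS19, RPS23, RPS24 and RPS26. They include proteins of the head (Rps3, Rps15, Rps18, Rps19, Rps20), the decoding centre (Rps23) and the platform (Rps14, Rps26). A mean of at least 2-fold was reached by 8 of them, a count whose share over all genes was not taken.

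The difference between the experiments was tested as E4 minus E3 in the same fit, on genes read on all 4 arrays. Of 54 members, 48 were higher in E4 than in E3, none was lower and 6 were not called. Over all 4992 genes, 26.5% were called higher and 21.6% lower. By an unadjusted p below 0.05 the counts were 50 higher and 0 lower. The median difference was 0.67 on the log2 scale. It was largest for RPS0A, at 1.11 (SE 0.09, adjusted p = 1.88e-05), RPS18B, at 1.09 (adjusted p = 1.04e-04), and RPS18A, at 1.03 (adjusted p = 3.82e-04). The 6 not called were RPS28A (−0.16), RPS15 (−0.03), RPS29B (−0.01), RPS30B (0.19), RPS10B (0.27) and RPS19A (0.29). RPS15, RPS29B and RPS19A had fallen in both experiments. Without array 2 of E3, the difference of RPS28A was −0.37. With a curve per print-tip block RPS15 (−0.46) and RPS28A (−0.48) were called lower, and RPS10B (0.62) and RPS19A (0.35) higher.

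**Figure D2:**
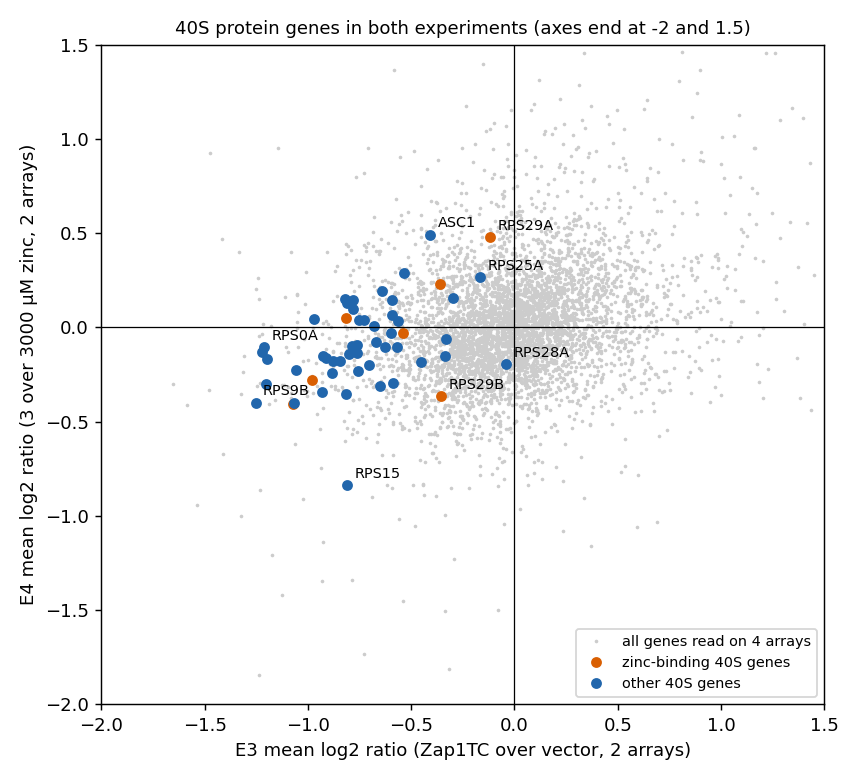
Mean log2 ratio in E4 (y axis) against that in E3 (x axis) over 2 arrays each, for zinc-binding 40S genes (orange), other 40S genes (blue) and all genes read on 4 arrays (grey). The axes are cut at −2 and 1.5, so genes with larger changes are not drawn. The 40S genes lie left of 0 in E3 and on both sides of 0 in E4, with RPS15 low in both and ASC1 and RPS29A highest in E4.

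The scatter of E4 against E3 shows the 40S genes as a cloud shifted to the left of the other genes. Of the 54, 30 were not called in E4, fell in E3 and differed between the experiments, and 13 fell in both but less in E4. RPS2, RPS27B and ASC1 rose in E4 and fell in E3, with a called difference. Each of these genes lost its E4 call, its E3 call or both in some setting. RPS25A and RPS29A rose in E4, were not called in E3 and differed between the experiments. The shares of all genes with these combinations of calls were not taken. Across the 54 genes the E4 and E3 means had r = 0.46 (Spearman 0.46), and across all 4992 genes r = 0.46 (Spearman 0.27). These are descriptions across genes of the same 4 arrays.

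The members were among the brightest spots. On the 2 arrays of E4, 51 and 51 of the members read were in the top decile of brightness, and on those of E3 44 and 42. A loess curve is drawn through the same bright spots, and ribosomal protein genes make up part of them. When the curve was fitted without any cytosolic ribosomal protein gene, the member median was −0.26 in E4 and −0.85 in E3, and 3 members rose and 33 fell in E4, against 25.1% higher and 25.9% lower over all genes in that setting. There the share of members that fell was above the background. With median centring and no curve, it was −0.04 in E4 and −0.72 in E3, and 10 rose and 11 fell in E4, against 25.9% and 24.9% over all genes. In the authors' deposited log2 ratios it was −0.21 in E4 and −0.84 in E3, with 3 higher and 29 lower in E4, against 19.7% and 25.1% over all genes, so that the lower share was again above the background. With a curve per print-tip block it was −0.10 in E4 and −0.61 in E3, with 3 higher and 13 lower in E4, with the share of all genes at 25% and 24%. Under every setting with both arrays of E3, the E3 count of lower calls stayed between 47 and 52, against 26.5% to 34% of all genes. The median stayed below 0 in both experiments under each of these and the other settings. Genes in the top decile on every array that read them, cytosolic ribosomal protein genes left out, were taken beside the members. They had a median of 0.11 over 208 tested in E4 and of −0.005 over 211 tested in E3. In the measured data the part of brightness and of the curve in the members' values was not tested beyond these settings.

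**Figure D3:**
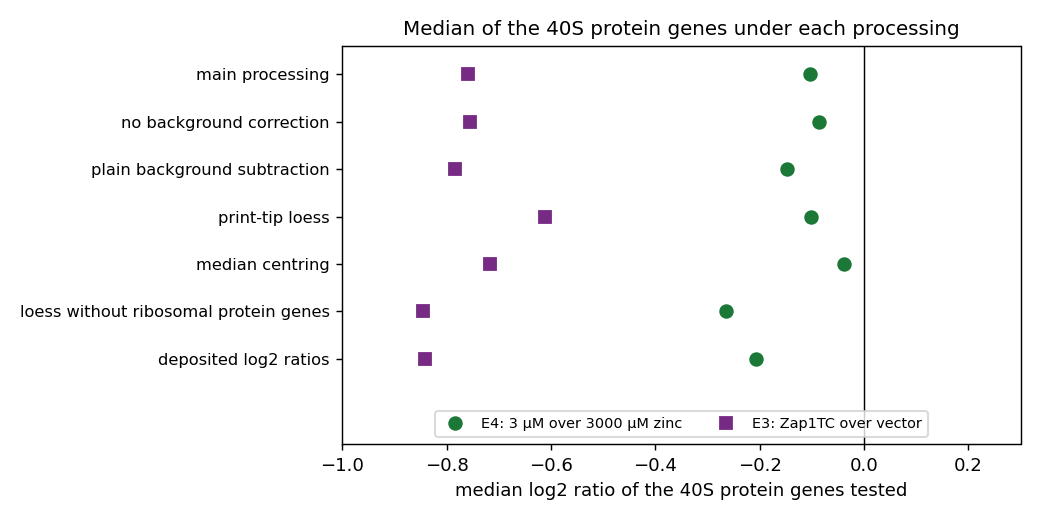
Median log2 ratio (x axis) of the 40S genes tested in E4 (green circles) and E3 (purple squares) under each processing (rows). All medians lie below 0. Those of E4 run between −0.26 and −0.04 and those of E3 between −0.85 and −0.61, so the 2 experiments do not overlap.

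The 7 genes of the zinc-binding proteins Rps26, Rps27, Rps29 and Rps31 did not move as a block in zinc-limited cells. In E4, 2 rose (RPS29A and RPS27B), 3 fell (RPS26A, RPS26B and RPS29B) and 2 were not called. Over all genes tested, 25.7% were called higher and 24.9% lower. The calls of RPS29A and RPS26A held in every setting, and those of RPS27B and RPS26B were each lost in some. The call of RPS29B held in every setting with both arrays of E4, and array 2 alone gave −0.21. The median of the 7 zinc-binding genes was −0.03, against −0.10 for the 48 other members tested. It was 0.05 under median centring and −0.30 with the curve fitted without ribosomal protein genes, where the other members stood at −0.26, so the order of the groups turned. In E3, 6 of 7 fell, against 29.3% of all genes, and RPS29A was not called. The zinc-binding E3 median was −0.54, against −0.76 for the 47 other members, of which 45 fell. In the deposited log2 ratios the zinc-binding median in E3 was −0.83, against −0.85 for the other members, and with the curve fitted without ribosomal protein genes it was −0.81, against −0.88 for the other members, so this gap depended on the processing. The single values spanned −0.41 to 0.48 in E4 and −1.07 to −0.12 in E3. The SD over genes was 0.33 for the zinc-binding and 0.22 for the other members in E4, and 0.36 and 0.27 in E3.

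Both RPS26 genes fell in both experiments. RPS26B read −0.30 and −0.26 in E4 (adjusted p = 0.0104) and −0.85 and −1.11 in E3 (adjusted p = 1.91e-06). RPS26A read −0.95 and −1.20 in E3, or 2.11-fold lower (adjusted p = 1.12e-06). With a curve per print-tip block RPS26B stood at −0.12 in E4 and was not called (adjusted p = 0.131). In that setting RPS26A stood at −0.23 in E4, and the E3 values were −0.53 for RPS26A and −0.51 for RPS26B, each of which was called. TSR2, whose protein is the chaperone that carries Rps26 to the pre-40S subunit, was also lower in both, with −0.44 and −0.38 in E4 (adjusted p = 0.00203) and −0.60 and −0.30 in E3 (adjusted p = 6.16e-04).

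The RPS27 genes moved less in E4. RPS27A read −0.02 and 0.12 in E4 (adjusted p = 0.651) and −0.63 and −0.997 in E3 (adjusted p = 2.33e-05). RPS27B read −0.22 and −0.50 in E3 (adjusted p = 0.00217), less low than RPS27A on each array. RPS31, a single-copy gene whose protein is made as a fusion with ubiquitin, read −0.05 and −0.01 in E4 (adjusted p = 0.740), but stood at −0.30 and was called lower with the curve fitted without ribosomal protein genes (adjusted p = 0.0125). In E3 it read −0.38 and −0.69 (adjusted p = 1.83e-04), but −0.03 with a curve per print-tip block (adjusted p = 0.763).

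The RPS29 genes split. RPS29A had Cy5 intensities of 684 and 904 in zinc-limited cells, against Cy3 intensities of 494 and 614 in zinc-replete cells. RPS29B had 487 and 662 in zinc-limited cells, against 680 and 720 in zinc-replete cells. After correction and normalization RPS29A rose and RPS29B fell in E4. On all 4 arrays every RPS29A spot had a higher ratio than every RPS29B spot. In E3 RPS29B fell, with −0.24 and −0.47 (adjusted p = 0.00444), a call that was lost with plain background subtraction. The difference between the copies was 0.97 and 0.72 in E4, or 0.84 ± 0.18 (SD, n = 2), and 0.34 and 0.14 in E3.

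For most other pairs the copies lay close together. The difference between the A and the B gene was taken within each array and is a description with no test. In E4, 22 pairs had both copies on both arrays, with a median absolute difference of 0.07, against 0.22 between members of different pairs. In E3, 21 pairs had a median of 0.19, against 0.27 between members of different pairs. Across pairs the A and B means had r = 0.41 (Spearman 0.51) in E4 and 0.67 (Spearman 0.56) in E3. In E4 both copies fell in 5 pairs, 1 copy was called in 5, neither in 11, and RPS29 was the 1 pair with opposite calls. In E3 both copies fell in 18 of 21 pairs and 1 copy in the other 3. Over all single genes tested, 24.9% were called lower in E4 and 29.3% in E3.

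**Figure D4:**
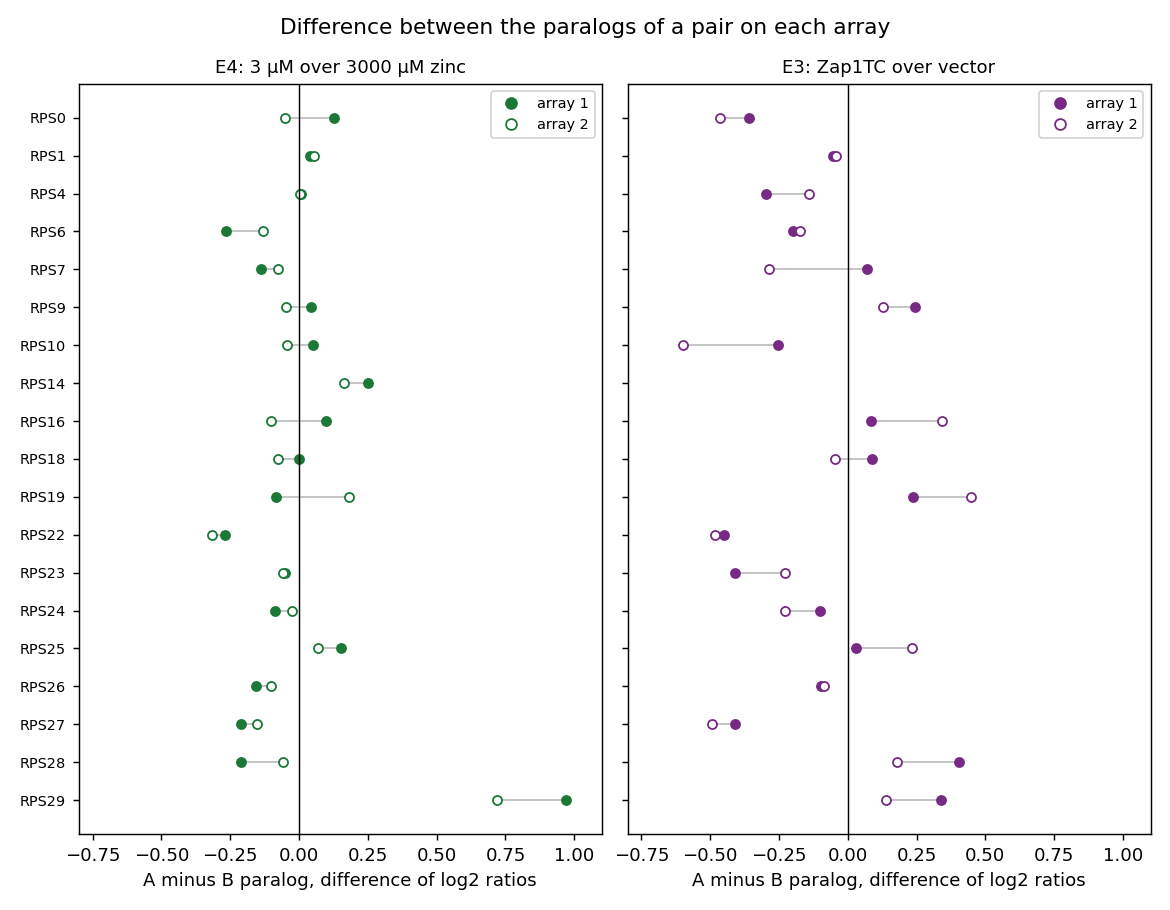
Log2 ratio of the A gene minus that of the B gene (x axis) for pairs of paralogs (rows) on array 1 (filled) and array 2 (open), with E4 on the left and E3 on the right. Most pairs of E4 lie near 0 and RPS29 stands apart at 0.97 and 0.72. In E3 the differences are wider and reach −0.46 on average for RPS22.

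After RPS29, the widest pairs in E4 included RPS22, RPS14 and RPS6. For RPS22 the A copy was lower, A minus B being −0.27 and −0.32 in E4 and −0.45 and −0.48 in E3. RPS22B stood at 0.06 in E4 (adjusted p = 0.485) and RPS22A at −0.23 (adjusted p = 0.0311). The RPS22A call was lost in some settings, among them median centring (−0.15), and on array 1 of E4 alone the value was −0.18. For RPS14 the A copy was higher by 0.25 and 0.16 in E4, and it had no value in E3. In yeast, the Rps14 protein holds down the RPS14B transcript. For RPS6, whose protein is phosphorylated under TOR control, the A copy was lower, A minus B being −0.27 and −0.13 in E4 and −0.20 and −0.17 in E3.

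In E3 the widest pairs were RPS22, RPS27, RPS10, RPS0 and RPS19. The A copy was lower for RPS27 (−0.41 and −0.49), RPS10 (−0.25 and −0.60) and RPS0 (−0.36 and −0.46), and higher for RPS19 (0.24 and 0.45). For RPS27 the same order held in E4, with −0.21 and −0.15, whereas RPS10 and RPS0 stood within 0.04 of 0 on average in E4. With a curve per print-tip block RPS10 stood at −0.27 in E4 and −0.085 in E3, and RPS0 at −0.082 in E4 and −0.23 in E3, so for RPS10 the contrast between the experiments turned. For RPS19 the E3 difference was 0.11 with plain background subtraction. Of the 21 pairs read on all 4 arrays, 9 had the same copy higher on every array, among them RPS22, RPS23, RPS24, RPS25, RPS26, RPS27 and RPS29. With a curve per print-tip block the sign turned for RPS23 and RPS25 in E4 and for RPS24 in E3.

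Of the 9 single-copy genes, 2 rose and 2 fell in E4, with a median of −0.03, and all 9 fell in E3, with a median of −0.70. The shares over all genes were 25.7% higher and 24.9% lower in E4, and 29.3% lower in E3. Of the 45 paired genes tested in E3, 42 fell, with a median of −0.76. RPS20, for a protein of the subunit head, read −0.21 and −0.14 in E4 (adjusted p = 0.0334, lost with median centring among other settings). In E3 RPS20 read −0.83 and −0.87 (adjusted p = 1.54e-06). RPS3, at the mRNA entry channel, read 0.15 and 0.11 in E4 (adjusted p = 0.120) and −0.74 and −0.88 in E3 (adjusted p = 3.12e-06). RPS12 and RPS13 read −0.20 and −0.03 on average in E4 and −0.70 and −0.60 in E3. Gene span in the RefSeq annotation, introns included, was weakly and negatively related to the E3 mean across the 54 members (r = −0.43, Spearman −0.32), and hardly to the E4 mean (r = 0.03). Across all genes in E3 r was 0.10.

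Among the 60S protein genes, of 76 tested in E4, 13 rose and 27 fell, with a median of −0.09, between −0.57 for RPL34A and 0.58 for RPL1A. Of 74 tested in E3, 66 fell and 2 rose, with a median of −0.78, between −1.19 for RPL27B and 0.29 for RPL39. The 40S medians were −0.10 in E4 and −0.76 in E3. Over all genes tested, 25.7% were called higher and 24.9% lower in E4, and 29.3% each way in E3. Among the 8 genes of zinc-binding 60S proteins, 1 rose and 4 fell in E4, with RPL43B at 0.29 and RPL37A at −0.38, and 7 fell in E3, with RPL43B at 0.14 and RPL37A at −0.78. The mitochondrial ribosome has its own set of proteins, and of the genes of its small subunit 16 of 30 fell and 3 rose in E4, with a median of −0.21, MRP4 at −0.71 and MRPS12 at 0.26. In E3 20 of 28 fell and 1 rose, with a median of −0.29, MRP13 at −0.81 and MRP2 at 0.31.

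Genes of 40S assembly factors were nearer to 0. The shares called over all genes were 25.7% higher and 24.9% lower in E4 and 29.3% each way in E3. The E4 counts of assembly factors were not above these shares. In E4 3 of 17 rose and 4 fell, with a median of 0.06, TSR1 at 0.23 and LTV1 at −0.28. In E3 9 of 19 fell and 1 rose, with a median of −0.19. RCL1, an early factor needed for a cleavage of the pre-rRNA, read −1.21 and −0.86 in E3 (adjusted p = 7.98e-06), and RRP7 read 0.45 and 0.36 (adjusted p = 2.89e-04). Of the 6 genes whose proteins bind single 40S proteins or the idle 40S subunit, 4 fell and FAP7, whose protein binds Rps14, rose in E4, with TSR2 lowest at −0.41 and FAP7 highest at 0.22. In E3 4 fell, with STM1, for a protein that holds idle ribosomes together, lowest at −0.59 and TSR4, for the chaperone of Rps2, highest at −0.07.

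Among 18 genes of regulators of ribosomal protein genes the median was 0.06 in E4 and 0.01 in E3. DOT6, a repressor of ribosome biogenesis genes, rose most in both, with 0.53 and 0.57 in E4 (adjusted p = 7.91e-05) and 1.19 and 1.14 in E3 (adjusted p = 2.03e-07). IFH1, the coactivator at ribosomal protein promoters, read −0.15 and 0.04 in E4 (adjusted p = 0.559) and was lowest in E3, at −0.61 and −0.46 (adjusted p = 1.03e-04). TPK3, a catalytic subunit of protein kinase A, was lowest in E4, at −0.35 and −0.37 (adjusted p = 0.00216). Of the 16 and 17 regulators tested, 5 rose and 2 fell in E4, and 5 rose and 5 fell in E3. Over all genes, 25.7% were called higher and 24.9% lower in E4, and 29.3% each way in E3. The E3 counts of regulators were thus near the background.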

How the data were processed

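mRNA of 4 arrays (2 in E4, 2 in E3) was analysed. The deposited spot tables hold, per spot and channel, the scanner's mean intensity and local background intensity, without normalization, for unflagged spots. The authors' ratio columns in them were not used. The deposited value table holds log2 ratios after the authors' LOWESS normalization per slide, without subtracting background, and served as an alternative. Each array's scale and direction in it were checked against its scanner values. The genome build is not given in the sources used here, and no coordinates are printed.

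Intensities were corrected by normexp (offset 50) and each array's ratios by loess (span 0.3) in limma 3.58.1 under R 4.3.3. The log2 ratios of a gene's spots were then averaged. The linear model had an own mean for E4 and E3 and a spread pooled over the 4 arrays, and E4 minus E3 was a contrast in it. Tests were two-sided, with Benjamini-Hochberg adjustment over all genes tested. The fit was tested on simulated data. The normalization was also run on simulated data in which the ribosomal protein genes were shifted together, with results not reported here. All 57 members were found among the RefSeq locus tags, as were 5538 of the array's gene names, while 525 were not found. Mean ± SD is over the 2 arrays. Member spots exceeded their local background by more than 2.6 SD of the local backgrounds in both channels, apart from 1 spot in Cy5 on array 1 of E4.

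Members, lists, tests and alternatives were chosen with earlier results of these data known. Given in full are, per experiment, the 5 highest and 5 lowest members and the 5 widest pairs, the zinc-binding members, ASC1, the 3 largest E4 minus E3 differences each way and the extremes of each list. The members past the study's rule are summarised. Some members are counted throughout, but their single values are not reported here. Others were picked as examples after their values were seen. Alternatives were other background corrections and normalizations, the median of spots, leaving out dim genes, leaving out each array, the deposited log2 ratios, each experiment fitted by itself, a prior with trend and robust estimation, a replicate block and a 2-fold rule.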

Additional observations from a re-analysis of the deposited data

Results flagged for a closer look

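In limma's test of E4 minus E3, the changes of the 40S genes differed between the experiments for 48 of 54 members, all higher in E4. Over all 4992 genes tested, 26.5% were called higher. Of the 48 members, 3 were called in opposite directions in the 2 experiments, a count whose share over all genes was not taken. In some settings the E4 call was lost for RPS2 and RPS27B, and the E3 call for ASC1. On array 1 alone the E3 value of RPS27B was −0.22. The called difference held for these 3 members in every setting. The difference was 0.90 on the log2 scale for ASC1 (SE 0.14, adjusted p = 8.16e-04), 0.82 for RPS2 (SE 0.09, adjusted p = 9.96e-05) and 0.59 for RPS27B (SE 0.11, adjusted p = 0.00164), each higher on both arrays of E4 than on both arrays of E3. Medium and carbon source change with the experiment, and their part in the difference cannot be told apart.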

How the results depend on the processing

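Member calls were recomputed under 15 settings for E4 and E3 and 14 for the difference. In E4 666 of 822 values kept their direction and side of the threshold, and 47 more were uncalled values whose sign turned. In E3 790 of 810 did, with 3 such values, and 44 of 51 lower calls held in every setting. In the difference 708 of 756 did, with 10 such values. In E4 the median was −0.15 with plain background subtraction, −0.038 with median centring, −0.26 with loess without ribosomal protein genes and −0.21 in the deposited ratios. The higher calls in E4 were then 2, 10, 3 and 3, and 3 with print-tip loess. The lower calls were 10 with plain subtraction, 33 with loess without ribosomal protein genes and 29 in the deposited ratios. With plain subtraction 23% of all genes were called higher and 21.2% lower in E4. The shares of the other settings named here are given further above. The causes were not tested. In E3 the median was −0.61 with print-tip loess. A mean of at least 2-fold left 8 members past the rule in E3 and 0 in E4, with the share over all genes not taken. Without 1 array at a time, E4 had 3 to 7 members higher and 9 to 21 lower, a median between −0.13 and −0.094 and 0 to 1 member past the rule upwards. E3 then had 47 to 53 lower, a median between −0.83 and −0.66 and 31 to 42 past the rule, and the difference had 44 to 50 higher and 0 to 1 lower. The lowest counts in E4, 3 higher and 9 lower, came without its array 1. Print-tip loess gave 2 members lower in the difference, RPS15 (−0.46) and RPS28A (−0.48).

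Among called values, few signs turned. In E4 RPS6A stood at 0.016 with print-tip loess (adjusted p = 0.834) and RPS4A at −0.16 with loess without ribosomal protein genes (adjusted p = 0.0449). The zinc-binding median in E4 was 0.050 with median centring and −0.30 with loess without ribosomal protein genes. The A minus B difference turned with print-tip loess for RPS4 (−0.19), RPS23 (0.029) and RPS25 (−0.049) in E4 and RPS16 (−0.012) and RPS24 (0.064) in E3, and without ribosomal protein genes in the curve for RPS4 in E4 (−0.013).

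The differences of array 1 minus array 2 in E4 and in E3 had r = −0.07 across 4992 genes and −0.18 across the 54 members. With a single such difference per experiment, this cannot show whether same-numbered arrays were paired. With the replicate number as a block, E4 had 6 higher and 16 lower, against 25.9% and 24.7% of all genes. E3 then had 51 lower, against 32.4% of all genes. The difference had 50 higher, a count whose share over all genes was not taken in that setting. Between-array quantile scaling, which leaves ratios as they are, and leaving out saturated spots, of which there was no pile-up, were not run. Leaving out 224 dim genes removed no member.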
